A study of Mus musculus with 12 samples.

Results

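The genes described here encode splicing factors and the kinases that act on them, measured in whole mouse lung. They were the 67 genes, of 24704 with a single symbol on the array, whose symbol names an SR protein (Srsf), a Luc7-like protein (Luc7l), a heterogeneous nuclear ribonucleoprotein (Hnrnp), a pre-mRNA processing factor (Prpf), a CDC-like kinase (Clk), a subunit of the SF3a or SF3b complex, a Tra2 protein or a protein of the small nuclear ribonucleoproteins (Snrnp). Each had 1 probe set. The 12 arrays came from 4 groups of 3 mice. Control mice were Nfat5fl/fl and had been given miglyol, the solvent. Knockout mice were Nfat5(EC)-/-, in which daily tamoxifen (1 mg, intraperitoneal, for 5 days) had deleted floxed Nfat5 in endothelial cells. The mice were males and females aged 10 to 12 weeks at that treatment and recovered for 2 to 3 weeks, after which lungs were taken from mice of each genotype in normoxia or exposed to hypoxia for 21 days. All 4 groups carried the floxed gene, and only the knockouts received tamoxifen, so an effect of the drug and one of the deletion cannot be told apart. The driver of the recombinase is not named in the labels. The comparisons ask how chronic hypoxia changes lung expression and whether loss of endothelial NFAT5, a transcription factor of the osmotic stress response, alters that change.

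Splicing is carried out by the spliceosome. In it U1 marks the 5′ splice site, U2 with SF3a and SF3b binds the branch point, and the U4/U6 and U5 particles then join. SR proteins and hnRNPs bind the transcript and favour or oppose the use of nearby sites, and CLK kinases phosphorylate the arginine-serine tails of SR proteins, which releases them from nuclear speckles. Many of these genes also control their own amount through introns that stay in the RNA or exons that mark it for decay. The array gives 1 value per gene, so such isoforms cannot be told apart here.

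Expression is given as the deposited log2 value, on which 1 unit is a doubling, and a change is a difference of log2 values with limma's standard error (SE). A gene was called where its p-value, adjusted by Benjamini-Hochberg over all 24704 genes, was under 0.05. Values from different genes are not compared in level, since each probe set has its own brightness. Lung markers were high on all arrays (Sftpc from 13.36 to 13.58, Pecam1 from 11.44 to 11.77). The study's text says that preparations with other tissue such as thymus or an inadequate expression response to hypoxia had been left out, so animals were chosen in part on the response that is compared here. The thymocyte gene Rag1 lay between 3.29 and 3.62. The brown fat marker Ucp1 stood apart in control hypoxia 1 (7.66) and knockout normoxia 2 (9.31), against 4.28 or less elsewhere, and atrial Nppa was high in knockout normoxia 2 (11.94) and knockout normoxia 4 (9.41). In normoxia, Nfat5 was 9.01, 9.39 and 8.92 in control and 8.59, 8.80 and 8.62 in knockout lungs, and in hypoxia it was 8.61, 8.16 and 8.51 in control and 8.17, 8.46 and 8.40 in knockout lungs. It fell with hypoxia in control lungs (-0.68 ± 0.15 SE, adjusted p = 0.0157). The difference between genotypes did not pass in normoxia (-0.44 ± 0.15 SE, adjusted p = 0.62) or in hypoxia (-0.08 ± 0.15 SE, adjusted p = 0.974), and whole lung holds the Nfat5 RNA of all other cells. In bulk tissue, fewer cells of a type and less RNA per cell cannot be told apart.

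RefSeq promoter sequence (GRCm38.p6) matched 59 of the 67 genes, with 75 start sites between them. Those of 4 genes whose values carry the results below are printed as the 250 bases before the start site, 5′ to 3′ on the gene's strand. Clk4, Luc7l3 and Srsf10 are among the largest decreases in control lungs, and Srsf5 is the member called in both genotypes. Clk4 lies at chr11:51262864-51263113 (plus strand), Luc7l3 at chr11:94321964-94322213 (minus strand), Srsf10 at chr4:135855821-135856070 (plus strand) and Srsf5 at chr12:80945249-80945498 (plus strand). Capitals mark every match, on either strand, to ACGTG (core of the hypoxia response element), TGGAAA (core site of NFAT proteins), CCAAT and TGACG (site of CREB and ATF factors), and matches that overlap are merged.
Clk4: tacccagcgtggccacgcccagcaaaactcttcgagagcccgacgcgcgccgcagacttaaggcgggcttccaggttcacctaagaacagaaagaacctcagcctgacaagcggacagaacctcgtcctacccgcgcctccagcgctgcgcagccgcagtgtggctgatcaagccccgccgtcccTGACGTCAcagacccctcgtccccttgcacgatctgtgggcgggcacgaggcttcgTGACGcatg
Luc7l3: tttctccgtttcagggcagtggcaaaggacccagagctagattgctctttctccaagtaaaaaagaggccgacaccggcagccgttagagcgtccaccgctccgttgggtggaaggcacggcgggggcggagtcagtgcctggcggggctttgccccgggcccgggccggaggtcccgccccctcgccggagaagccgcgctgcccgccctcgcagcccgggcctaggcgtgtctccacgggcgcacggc
Srsf10: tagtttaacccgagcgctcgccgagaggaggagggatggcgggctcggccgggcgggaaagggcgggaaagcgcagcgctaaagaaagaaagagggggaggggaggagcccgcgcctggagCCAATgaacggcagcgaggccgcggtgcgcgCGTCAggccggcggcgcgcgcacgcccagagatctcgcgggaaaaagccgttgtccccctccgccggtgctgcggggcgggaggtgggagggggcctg
Srsf5: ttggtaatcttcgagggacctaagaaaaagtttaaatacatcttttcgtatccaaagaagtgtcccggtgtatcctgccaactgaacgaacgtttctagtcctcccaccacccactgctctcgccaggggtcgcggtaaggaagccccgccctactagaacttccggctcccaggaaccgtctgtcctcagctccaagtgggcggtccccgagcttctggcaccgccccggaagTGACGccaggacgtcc
These windows were rich in CG dinucleotides, with 25 in Clk4, 26 in Luc7l3, 33 in Srsf10 and 17 in Srsf5, against a median of 6 over all 32851 promoters of the table and 21 over the members' 75. The 4 windows held no ACGTG and no TGGAAA. Srsf10 held 1 CCAAT and 1 TGACG, Srsf5 held 1 TGACG, and Clk4 held 3 TGACG, of which 2 are the opposite strands of the palindrome TGACGTCA.

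Of the 4 motifs, only TGGAAA was in a smaller share of the member promoters than of all promoters. ACGTG was present in 34.7% of the member promoters, in 16.6% of all promoters and in 25.1% of the 8970 promoters with at least 15 CG dinucleotides. TGGAAA was present in 10.7%, 18.6% and 8.87% of the same 3 sets, and CCAAT in 46.7%, 33.8% and 31.3%. TGACG, which was added to the search after the sequences had been seen, was present in 40% of the member promoters, in 17.8% of all promoters and in 31.6% of those rich in CG dinucleotides. Among members that fell in control lungs, described next, 33 promoters held ACGTG in 27.3%, TGGAAA in 3.03%, CCAAT in 39.4% and TGACG in 57.6%, against 40.5%, 16.7%, 52.4% and 26.2% of the 42 promoters of the other members. Counted per gene, TGACG was present for 57.7% of the former and 33.3% of the latter. It was present for 19.8% of all genes and for 33.2% of genes with promoters of at least 15 CG dinucleotides. The printed sequences, seen before TGACG was added, all belong to genes that fell, so they count in the share of the former. These shares are descriptions of letters, some promoters belong to the same gene, and no test was made.

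In control lungs, chronic hypoxia lowered 29 of the 67 genes and raised 1. Over all genes tested, 6.14% were lower and 5.36% higher, 11.5% together, and the members' 29 make 43.3% and their 30 calls 44.8%. Of the 24704 genes, 11671 had a value above 5 in at least 3 arrays, as did 63 of the 67 members. The shares over all genes, here and below, are thus not matched to the members in signal level. The median change of the 67 was -0.25, against 0.01 for all genes. Of the called members, 7 fell at least 2-fold, a count that was not made over all genes. The decreases were spread unevenly over the families. All 3 Luc7l genes, 3 of 4 Clk kinases, 7 of 10 SR proteins and 9 of 20 hnRNPs fell, whereas 3 of 12 Prpf, 2 of 7 Snrnp and 2 of 9 SF3 genes did, and neither Tra2 gene passed. The groups of 3 arrays did not overlap, with hypoxia lower, for 32 members (47.8%) and 13.7% of all genes.

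Clk1, the CLK kinase studied most for its action on SR proteins, was 10.28, 10.39 and 9.76 in control normoxia and 8.73, 8.26 and 8.69 in control hypoxia. All 3 hypoxic arrays lay more than 1 log2 unit below the lowest normoxic one. It fell by 1.58 ± 0.25 on the log2 scale (adjusted p = 0.00535), to 0.334 times its normoxic level. Clk4, its close relative, was 8.26, 8.25 and 7.84 in normoxia and 7.16, 6.69 and 6.90 in hypoxia, again without overlap. The change of Clk4 was -1.21 ± 0.21 (SE, adjusted p = 0.00726). Clk2, a more distant kinase of the family, was 7.91, 7.95 and 7.63 in normoxia and 7.11, 7.12 and 7.55 in hypoxia, a change of -0.57 ± 0.15 (SE, adjusted p = 0.0312). Control hypoxia 4 came within 0.1 of the lowest normoxic array for Clk2, and its call was lost when any 1 of 4 control arrays was left out. Clk3 was 8.08, 7.89 and 7.73 in normoxia and 7.53, 7.70 and 7.85 in hypoxia, the groups overlapped, and it did not pass (-0.21 ± 0.11 SE, adjusted p = 0.235). Prpf4b, a spliceosomal kinase of the U4/U6-U5 particle, was 9.04, 8.87 and 8.36 in normoxia and 7.90, 7.24 and 7.53 in hypoxia. It fell with no overlap (-1.20 ± 0.22 SE, adjusted p = 0.00928).

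**Figure D1:**
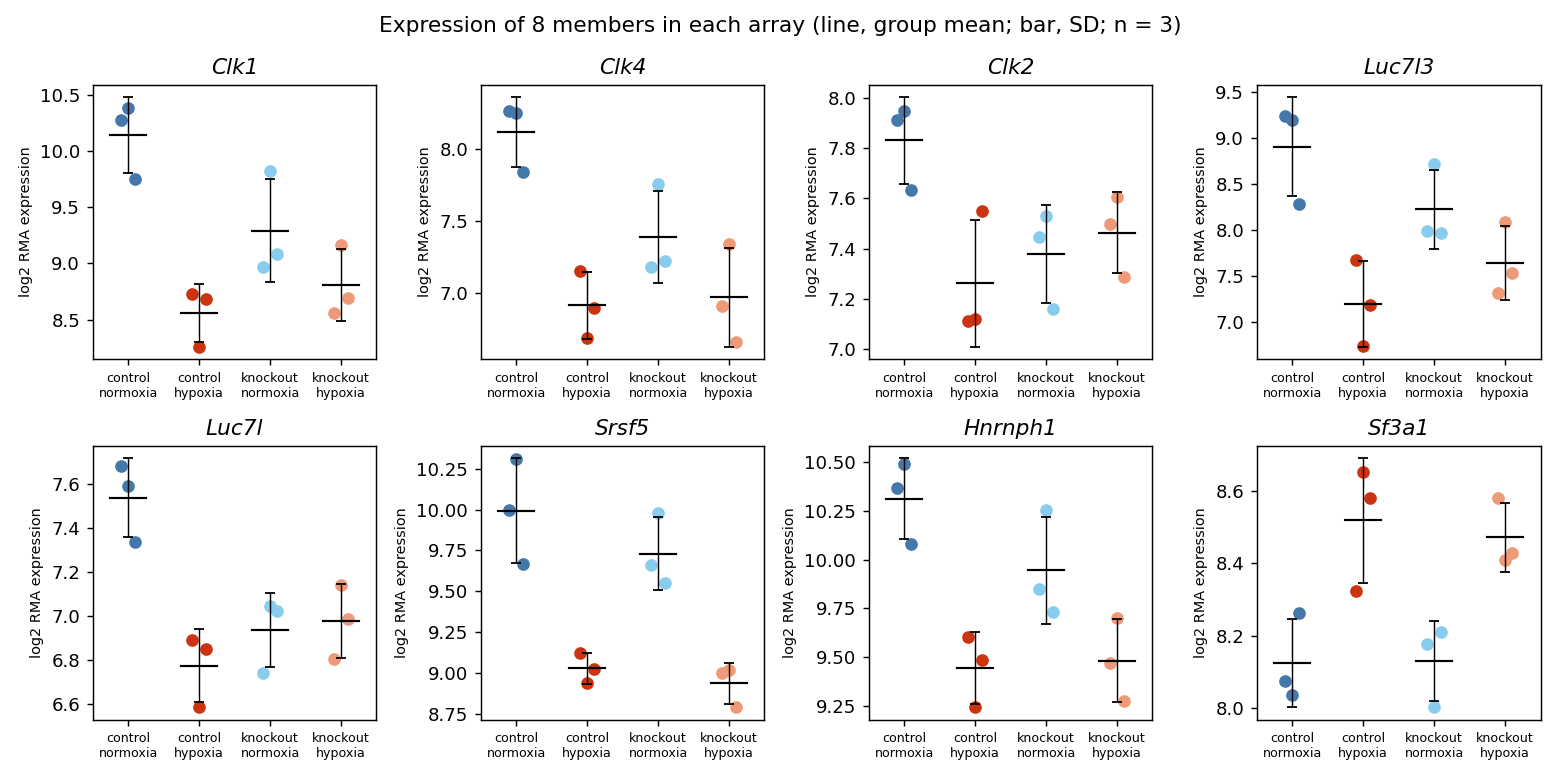
Log2 expression of 8 members in each of the 12 arrays, by group. Points are arrays, horizontal lines group means and bars the SD of 3 arrays, and each panel has its own axis. Clk1, Clk4, Clk2, Luc7l3, Luc7l, Srsf5 and Hnrnph1 are lower in all 3 hypoxic than in all 3 normoxic control arrays, and Sf3a1 is higher.

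The Luc7-like proteins bind the U1 particle and influence which 5′ splice site it marks. Luc7l3 was 9.24, 9.20 and 8.29 in control normoxia and 7.67, 6.73 and 7.18 in control hypoxia. Control normoxia 4 was almost 1 unit below the other normoxic arrays but still above all hypoxic ones. The change was -1.71 ± 0.32 (SE, adjusted p = 0.0094). Luc7l2 was 9.80, 9.77 and 9.11 in normoxia and 8.52, 7.95 and 7.87 in hypoxia, with no overlap (-1.45 ± 0.26 SE, adjusted p = 0.00789). Luc7l was 7.68, 7.59 and 7.33 in normoxia and 6.89, 6.58 and 6.85 in hypoxia, which also did not overlap (-0.76 ± 0.13 SE, adjusted p = 0.00733).

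Among SR proteins, Srsf10, which acts as a repressor of splicing when it is dephosphorylated, had the largest decrease. It was 8.09, 8.004 and 7.48 in control normoxia and 6.49, 5.80 and 6.24 in control hypoxia, a change of -1.68 ± 0.40 (SE, adjusted p = 0.0235), and its SD reached 0.85 in the hypoxic knockouts, the largest of any member in any group. Srsf3, the smallest SR protein, was 6.55, 7.25 and 6.69 in normoxia and 6.18, 5.44 and 5.98 in hypoxia. The groups of Srsf3 did not overlap (-0.97 ± 0.22 SE, adjusted p = 0.0191). Srsf5, another of the classical SR proteins, was 10.00, 10.31 and 9.67 in normoxia and 9.12, 8.94 and 9.02 in hypoxia. It fell by 0.96 ± 0.16 (SE, log2, adjusted p = 0.00607), and the hypoxic arrays differed by less than 0.2 among themselves. Srsf11 fell by 0.65, Srsf1, the founding member of the family, by 0.51, Srsf2 by 0.45 and Srsf6 by 0.35 on the log2 scale. Their limma adjusted p-values were 0.0212, 0.0299, 0.0236 and 0.0131. The 3 SR genes that did not pass were Srsf12 (-0.18), Srsf4 (-0.14) and Srsf9 (0.01 ± 0.10 SE, adjusted p = 0.95). Tra2a and Tra2b encode SR-like activators of exons that contain GAA repeats. Tra2a was 8.53, 8.45 and 8.28 in control normoxia and 8.30, 7.77 and 7.96 in control hypoxia (-0.41 ± 0.15 SE, adjusted p = 0.0913). Tra2b was 8.24, 8.33 and 8.25 in normoxia and 8.12, 7.94 and 8.27 in hypoxia (-0.16 ± 0.14 SE, adjusted p = 0.516). The groups of both genes overlapped.

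Most genes of the core particles did not pass, and of those that did all but 1 fell. Prpf39, a protein associated with U1, fell the most among them. It was 7.92, 7.90 and 6.85 in control normoxia and 6.40, 5.60 and 5.69 in control hypoxia, a change of -1.66 ± 0.36 (SE, adjusted p = 0.0163). Snrnp70, the U1 70K protein, fell by 0.40 (adjusted p = 0.0212), Snrnp48, a protein of the U11/U12 particle of minor introns, by 0.63 (adjusted p = 0.0206) and Prpf38b by 0.55 on the log2 scale (adjusted p = 0.0448). The subunits at the branch point, Sf3b1 and Sf3b6, fell by 0.52 and 0.38 on the log2 scale (adjusted p = 0.0224 and 0.0485). Sf3a1, a subunit of SF3a in the U2 particle, was the member that rose, from 8.07, 8.04 and 8.26 in normoxia to 8.32, 8.65 and 8.58 in hypoxia (0.39 ± 0.11 SE, adjusted p = 0.036). Its call was lost without any 1 of 5 arrays, of which 4 were control arrays. The highest value not called was that of Snrnp35 (0.39 ± 0.16 SE, adjusted p = 0.13), another U11/U12 protein. Prpf8, the scaffold of the catalytic centre, changed by 0.03 ± 0.08, and Snrnp200, the helicase that unwinds U4/U6, by 0.10 ± 0.08, and neither passed. Prpf3, Prpf4 and Prpf31, proteins of the U4/U6 particle, lay between -0.01 and 0.07, and the highest Prpf value was that of the ubiquitin ligase Prpf19 (0.26 ± 0.15 SE, adjusted p = 0.283).

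The hnRNPs are abundant RNA-binding proteins that often oppose exon use. Hnrnpa3 was 8.99, 9.02 and 8.47 in control normoxia and 8.22, 7.62 and 7.75 in control hypoxia, without overlap (-0.96 ± 0.21 SE, adjusted p = 0.0183). Hnrnpdl was 8.45, 8.31 and 7.98 in normoxia and 7.49, 7.08 and 7.31 in hypoxia (-0.96 ± 0.17 SE, adjusted p = 0.00811). Hnrnph1, which binds runs of G, was 10.37, 10.49 and 10.08 in normoxia and 9.61, 9.24 and 9.49 in hypoxia (-0.87 ± 0.16 SE, adjusted p = 0.00984). In these 3 genes the 3 hypoxic arrays lay below every normoxic array. Hnrnph3 fell by 0.81, Hnrnpr by 0.78, Hnrnpu, a nuclear scaffold protein, by 0.70, Hnrnpa2b1 by 0.58, Hnrnpm by 0.57 and Hnrnpll, known for the splicing of CD45 in lymphocytes, by 0.46 on the log2 scale (limma adjusted p from 0.0111 to 0.0456). Of the 11 that did not pass, 9 were below 0, and the highest was Hnrnpf (0.23 ± 0.12 SE, adjusted p = 0.26).

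**Figure D2:**
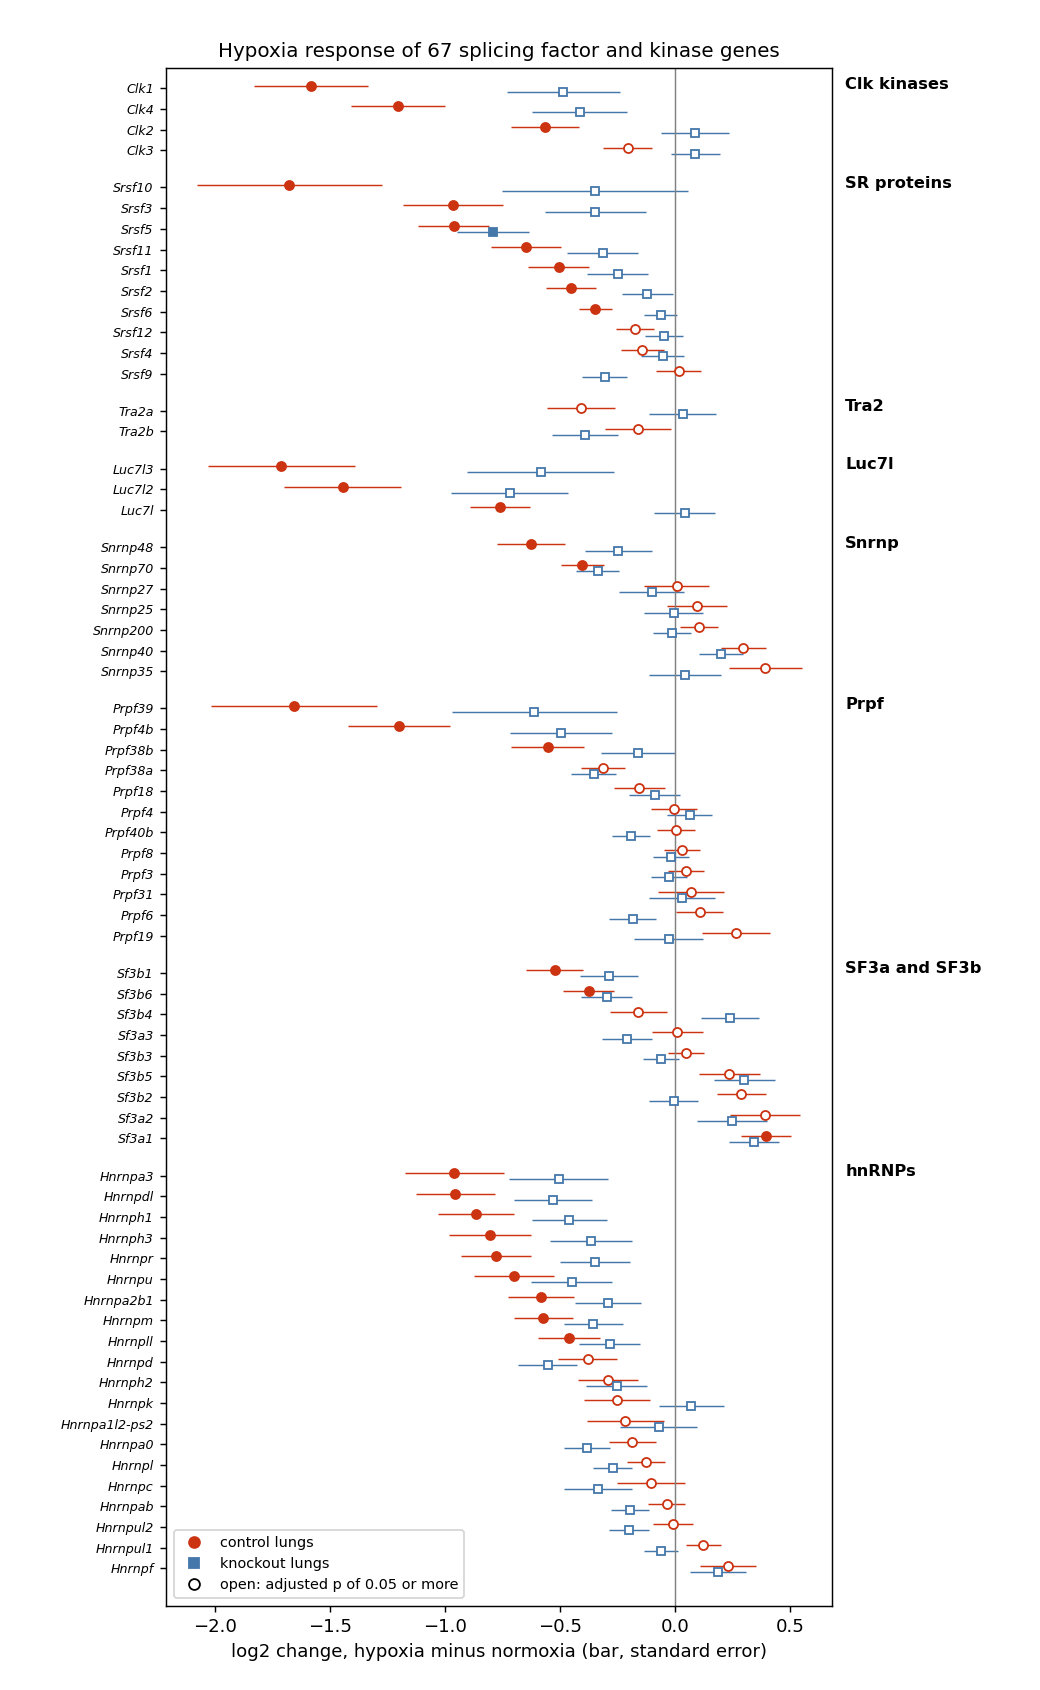
Log2 change with hypoxia of each of the 67 genes in control lungs (red circles) and knockout lungs (blue squares), by family. Bars are limma standard errors and filled symbols have an adjusted p under 0.05. In control lungs 30 symbols are filled, 29 of them below 0, and in knockout lungs 1 is filled, Srsf5.

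The call count in control lungs depended on single arrays. It dropped to 14 when control normoxia 1 was left out, and to 11 when either control normoxia 2 or control hypoxia 2 was. The 11 genes called whichever of the 12 arrays was left out were Clk1, Clk4, Prpf4b, Luc7l, Luc7l2, Luc7l3, Srsf5, Srsf6, Hnrnpdl, Hnrnph1 and Hnrnpr. The sexes were unevenly spread over oxygen, since the mean of 3 Y-linked genes was 5.34 or more in 2 of 3 arrays of each normoxic group but in 1 of 3 of each hypoxic group, and 3.26 or less in the others. In the higher arrays that mean was 6.12 to 6.69 in normoxia but 5.34 and 5.36 in hypoxia, so it also differed by oxygen among them. With that mean as a covariate, which is thus not a measure of sex alone, 21 of the 30 genes were still called. Without control hypoxia 1, the array with high Ucp1 in this comparison, 29 members were called, of which 26 were among the 30. Srsf10 and Prpf39 lost their calls when any 1 of the same 3 arrays was left out, and Srsf10 also without control hypoxia 4 (adjusted p from 0.0522 to 0.0989).

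In knockout lungs, hypoxia lowered 1 of the 67 genes, Srsf5, and raised none. Over all genes, 0.502% were lower and 0.64% higher, 1.14% together. Srsf5 was 9.66, 9.98 and 9.55 in normoxia and 9.0, 9.02 and 8.79 in hypoxia, which did not overlap, and fell by 0.79 ± 0.16 on the log2 scale (adjusted p = 0.0384). That call was lost without 9 of the 12 arrays, each left out in turn. The median change of the 67 was -0.20, against 0.00 for all genes, 53 of the 67 lay below 0 against 49.1% of all genes, and 24 had an unadjusted p under 0.05 (35.8%, against 12.6% of all genes). The 3 hypoxic arrays lay below the 3 normoxic arrays for 22 members (32.8%, against 8.97% of all genes), and 24 members were apart in either direction (35.8%, against 19.8%). Of the 29 genes that fell in control lungs, 27 were below 0 in knockout lungs as well, and these comparisons share no array. The matching share of all genes that fell was not counted, and changes in both genotypes correlated across all genes (Pearson r of 0.55). The 27 are thus not shown to be particular to the members.

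None of the Clk and Luc7l genes passed in knockout lungs, nor did Srsf10 or Prpf39. Clk1 was 8.97, 9.82 and 9.09 in knockout normoxia and 8.56, 9.17 and 8.69 in knockout hypoxia, and knockout hypoxia 3 lay above the lowest normoxic array (-0.49 ± 0.25 SE, adjusted p = 0.452). Clk4 was 7.18, 7.76 and 7.23 in normoxia and 6.91, 7.34 and 6.66 in hypoxia (-0.42 ± 0.21 SE, adjusted p = 0.439). Clk2 was 7.45, 7.53 and 7.16 in normoxia and 7.50, 7.60 and 7.29 in hypoxia (0.08 ± 0.15 SE, adjusted p = 0.896), and Clk3 was 7.69, 7.59 and 7.63 in normoxia and 7.76, 7.63 and 7.77 in hypoxia (0.09 ± 0.11 SE, adjusted p = 0.836). All 4 kinases had groups that overlapped.

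Luc7l3 was 7.99, 8.72 and 7.97 in knockout normoxia and 7.31, 8.09 and 7.53 in knockout hypoxia (-0.59 ± 0.32 SE, adjusted p = 0.498). Luc7l2 was 8.80, 9.55 and 9.01 in normoxia and 8.08, 8.73 and 8.39 in hypoxia (-0.72 ± 0.26 SE, adjusted p = 0.246), and its groups did not overlap. Luc7l was 6.74, 7.04 and 7.02 in normoxia and 6.80, 7.14 and 6.99 in hypoxia (0.04 ± 0.13 SE, adjusted p = 0.954), with overlap. Srsf10 was 6.47, 7.77 and 6.99 in normoxia and 5.81, 7.48 and 6.89 in hypoxia (-0.35 ± 0.40 SE, adjusted p = 0.82), a range that covers most of that of the normoxic knockouts. Prpf39 was 6.53, 7.62 and 6.70 in normoxia and 5.90, 6.75 and 6.36 in hypoxia (-0.61 ± 0.36 SE, adjusted p = 0.537). The groups also overlapped for Luc7l3, Srsf10 and Prpf39, and knockout hypoxia 3 was the highest of the hypoxic knockout arrays for each of them.

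The lowest member of each other family in knockout lungs was Hnrnpd for the hnRNPs, Tra2b for Tra2, Snrnp70 for Snrnp (-0.34 ± 0.09 SE, adjusted p = 0.13) and Sf3b6 for SF3 (-0.30 ± 0.11 SE, adjusted p = 0.268). Hnrnpd, also called AUF1, was 9.16, 9.33 and 9.14 in knockout normoxia and 8.54, 8.85 and 8.57 in knockout hypoxia, without overlap (-0.55 ± 0.13 SE, adjusted p = 0.0722), and changed by -0.38 ± 0.13 (SE, adjusted p = 0.0768) in control lungs. Tra2b was 7.96, 8.60 and 8.12 in normoxia and 7.89, 7.88 and 7.72 in hypoxia, also without overlap (-0.39 ± 0.14 SE, adjusted p = 0.264). Tra2a was 8.01, 8.30 and 7.97 in normoxia and 7.96, 8.32 and 8.09 in hypoxia, with overlap (0.03 ± 0.15 SE, adjusted p = 0.968). The highest of the SF3, Snrnp and hnRNP families, 1 each, were Sf3a1, Snrnp40 (0.20 ± 0.10 SE, adjusted p = 0.429) and Hnrnpf (0.19 ± 0.12 SE, adjusted p = 0.599), and all 10 SR genes were below 0. Sf3a1 was 8.18, 8.004 and 8.21 in normoxia and 8.58, 8.41 and 8.43 in hypoxia, higher in all 3 hypoxic arrays as in control lungs, but it did not pass (0.34 ± 0.11 SE, adjusted p = 0.18).

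Averaged over both genotypes, with 6 arrays on each side, 31 of the 67 genes fell and 2 rose. Over all genes 7.4% were lower and 7.27% higher, and the 31 make 46.3% of the members. The calls shared 28 genes with those of control lungs, whose arrays this comparison also uses. Those added were the decreases of Hnrnpd (-0.47 ± 0.09 SE, adjusted p = 0.00723), Prpf38a (-0.34), Hnrnpa0 (-0.28) and Hnrnpl (-0.20) and the increase of Snrnp40, a U5 protein (0.25 ± 0.07 SE, adjusted p = 0.0326). Clk2 (-0.24 ± 0.10 SE, adjusted p = 0.152) and Prpf38b (-0.36 ± 0.11 SE, adjusted p = 0.0539) no longer passed. Srsf5 had the smallest adjusted p (-0.88 ± 0.11 SE, adjusted p = 0.000934), followed by Hnrnpdl (-0.74 ± 0.12 SE, adjusted p = 0.00318). This count stayed between 24 and 36 with any 1 array left out, and 24 of the 33 genes were called each time, among them Clk1, Clk4, Luc7l2, Luc7l3, Prpf39, Srsf3 and Sf3a1, whereas Srsf10 was called in 4 of the 12 fits.

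Between genotypes, 0 of the 67 genes passed in normoxia and 0 in hypoxia by limma, where 0.00405% of all genes (1 gene) and 0% passed. In normoxia 9 members had an unadjusted p under 0.05 (13.4%, against 7.26% of all genes), and in hypoxia 1 had (1.49%, against 5.1%). The 5 smallest p-values in normoxia belonged to Luc7l (-0.60 ± 0.13 SE, adjusted p = 0.48), Clk4 (-0.73 ± 0.21 SE, adjusted p = 0.564), Clk1 (-0.85 ± 0.25 SE, adjusted p = 0.579), Clk2 (-0.45 ± 0.15 SE, adjusted p = 0.62) and Srsf6 (-0.19 ± 0.07 SE, adjusted p = 0.638), all lower in knockout lungs. All knockout values were below all control values for Luc7l, Clk2, Clk3, Clk4 and Srsf6, and for 8 members in all (11.9%, against 6.22% of all genes), and above them for 2, Hnrnpab and Snrnp27 (2.99%, against 5.46%). The difference was below 0 for 43 members (64.2%, against 51.2% of all genes), among them all 4 Clk and all 3 Luc7l genes. For Clk1 knockout normoxia 2, at 9.82, lay just above control normoxia 4, at 9.76. In hypoxia the smallest p belonged to Sf3b4 (0.38 ± 0.12 SE, adjusted p = 0.947), whose values of 2.83 to 3.44 lie near the lower end of the array, and the others of the first 5, Srsf9, Prpf40b, Srsf3 and Tra2b, lay between -0.28 and 0.42. There 29 members were below 0 (43.3%, against 50.5% of all genes). The arrays were apart for 7 members (10.4%, against 9.74%), 6 of them lower in knockout lungs (8.96%, against 5.19%) and 1 higher (1.49%, against 4.55%).

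The interaction, the hypoxia change in knockout lungs minus that in control lungs, asks directly whether the response differed. It passed for 0 of the 67 genes by limma, where 0.00405% of all genes passed, and 10 members had an unadjusted p under 0.05 (14.9%, against 8.25% of all genes). The smallest p-values were those of Luc7l (0.80 ± 0.19 SE, adjusted p = 0.574), Clk1 (1.10 ± 0.35 SE, adjusted p = 0.574), Clk2 (0.65 ± 0.21 SE, adjusted p = 0.574), Srsf6 (0.29 ± 0.10 SE, adjusted p = 0.574) and Clk4 (0.79 ± 0.29 SE, adjusted p = 0.574). It was below 0 for 27 members (40.3%, against 50.3% of all genes). The largest value was that of Srsf10 (1.33 ± 0.57 SE, adjusted p = 0.597). A difference in response between genotypes was thus not shown for any member. The comparison in control lungs, that between genotypes in normoxia and the interaction all use the 3 control normoxia arrays, so they do not bear on each other independently.

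A set of noncoding RNAs chosen as nuclear moved with the members, though their place in the cell was not measured here. The mean of 11 nuclear noncoding RNAs was 6.59, 6.74 and 6.36 in control normoxia, 5.95, 5.65 and 5.81 in control hypoxia, 6.08, 6.48 and 6.12 in knockout normoxia and 5.78, 6.20 and 6.06 in knockout hypoxia. The mean of the 67 members was 7.95, 7.91 and 7.80 in control normoxia, 7.60, 7.42 and 7.51 in control hypoxia, 7.68, 7.85 and 7.70 in knockout normoxia and 7.49, 7.64 and 7.51 in knockout hypoxia. In both, control normoxia was highest and control hypoxia lowest, and knockout normoxia 2 and knockout hypoxia 3 were the highest of their groups. In control lungs 7 of the 11 noncoding RNAs fell with hypoxia and 0 rose (63.6%, against 6.14% lower among all genes). Malat1, an RNA of nuclear speckles, went from 12.67, 12.76 and 12.50 to 11.80, 11.62 and 11.62 (-0.96 ± 0.16 SE, adjusted p = 0.00653), and Neat1, the scaffold of paraspeckles, from 10.62, 11.04 and 10.15 to 8.95, 8.57 and 8.87 (-1.80 ± 0.27 SE, adjusted p = 0.0051). In knockout lungs 0 of the 11 passed, where 1.14% of all genes did. There 8 of the 11 lay below 0, against 49.1% of all genes, with a median of -0.25.

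**Figure D3:**
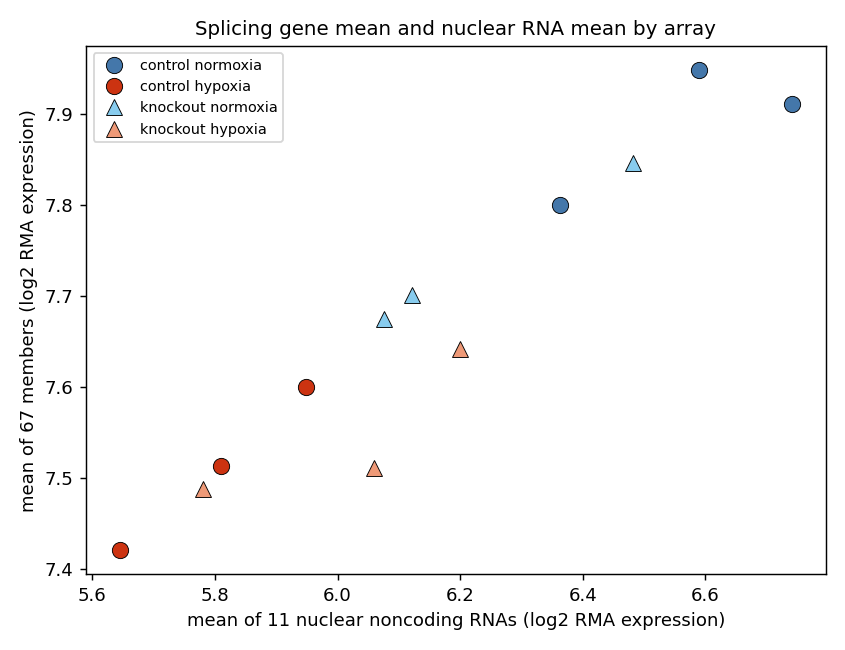
Mean log2 expression of the 67 members against the mean of 11 nuclear noncoding RNAs in each of the 12 arrays. Circles are control and triangles knockout lungs. Control normoxia lies at the upper right (member means of 7.80 to 7.95) and control hypoxia at the lower left (7.42 to 7.60), with the knockout arrays between or beside them.

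With the nuclear mean as a covariate in the fit, 0 of the 67 genes were called in control lungs, where 2 of all genes were. The median change of the 29 genes that had fallen went from -0.76 to -0.08, and 20 of the 29 stayed below 0. Their median standard error went from 0.16 to 0.21. Clk1 went from -1.58 to -0.29, Clk4 from -1.21 to -0.30, Luc7l3 from -1.71 to -0.05, Luc7l2 from -1.45 to -0.15 and Srsf5 from -0.96 to -0.38. Srsf10 went from -1.68 to 0.44 and Prpf39 from -1.66 to 0.25. Srsf6, at -0.38 with the covariate and -0.35 without, was the 1 of the 29 with an unadjusted p under 0.05, and it did not pass (adjusted p = 0.587). The nuclear means of normoxic and hypoxic control lungs do not overlap, and the part of nuclear RNA content in these changes was not tested. B cell markers also moved with hypoxia. Their mean over 5 genes ranged from 6.90 to 7.08 in control normoxia and from 6.11 to 6.61 in control hypoxia, and from 6.84 to 7.16 and 5.76 to 6.43 in the same groups of knockout lungs. Of these markers 3 of the 5 fell in control lungs (60%, against 6.14% lower among all genes) and 3 in knockout lungs (60%, against 0.502%), and their part was not tested either.

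**Figure D4:**
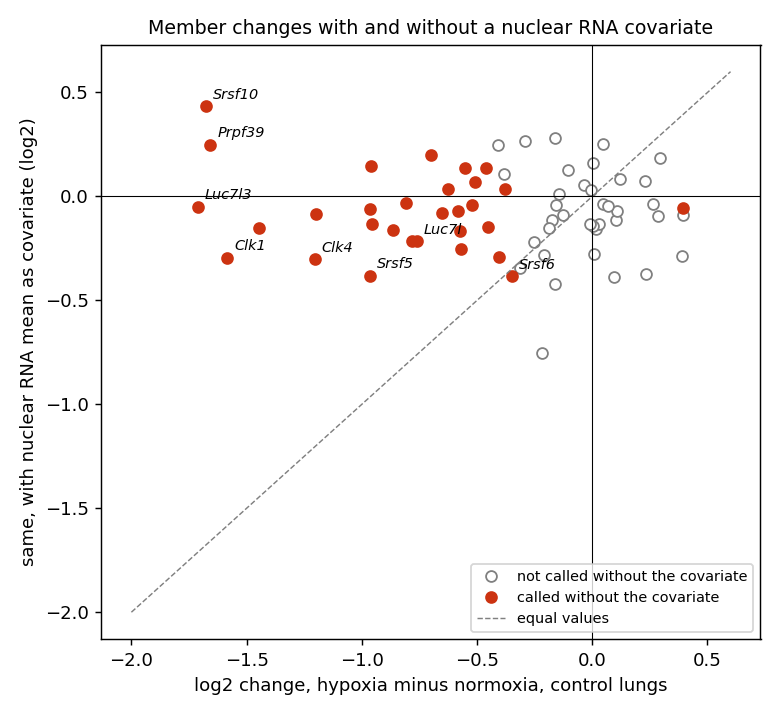
Log2 change with hypoxia in control lungs of each of the 67 members without (horizontal axis) and with (vertical axis) the mean of nuclear noncoding RNAs as a covariate. Filled points are the 30 genes called without it, and the dashed line marks equal values. The largest decreases, such as Luc7l3 (-1.71 against -0.05) and Clk1 (-1.58 against -0.29), lie far above the line.

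Splicing genes that the symbol rule does not cover were listed by role, and 140 of 150 were measured. In control lungs 40 of them fell (28.6%) and 3 rose, with a median of -0.19, beside 6.14% lower among all genes. Of 21 SR-related and speckle proteins, 13 fell and 0 rose (median -0.54). Son, the core protein of speckles, fell by 0.90, Scaf8 by 0.52, Rbm39, a cofactor of U2AF, by 1.23 and Rsrp1 by 0.65 on the log2 scale (adjusted p of 0.00664, 0.00577, 0.0107 and 0.00856). Of 48 regulators of alternative splicing, 17 fell and 0 rose. Sfpq fell by 1.07, the helicases Ddx17 and Ddx5 by 0.67 and 0.40, and Ptbp2, a repressor of exons best known in neurons, by 1.24 on the log2 scale (adjusted p of 0.00479, 0.00883, 0.00884 and 0.009). Of 15 other SR protein kinases and phosphatases and their relatives, 4 fell, Hipk3, Cdk13, Cdk12 and Top1, while Srpk1 (-0.30 ± 0.11 SE, adjusted p = 0.109) and Srpk2 (-0.34 ± 0.12 SE, adjusted p = 0.0928), the cytoplasmic kinases of SR proteins, did not pass.

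In lists of core and decay factors, counts are again set beside the 6.14% lower and 5.36% higher among all genes. Of 17 Sm, LSm and other snRNP proteins, 2 fell (11.8%), Snrpb2 (-0.72) and Snrpd3 (-0.45), with a list median of -0.07. Lsm8 (-0.39 ± 0.14 SE, adjusted p = 0.0853) and Lsm4 (0.27 ± 0.11 SE, adjusted p = 0.141) came next and did not pass. Of 31 factors of splice site recognition and assembly, 2 fell (6.45%) and 2 rose, with a median of 0.03. The U5 GTPase Eftud2 rose by 0.51 and Puf60 by 0.44, whereas the helicase Dhx15 fell by 0.49 and Rnpc3, a protein of the minor spliceosome, by 1.31 on the log2 scale. Of 8 exon junction and decay factors, Smg1 (-0.95) and Upf2 (-1.24), both of nonsense-mediated decay, fell, Upf1 (0.30) rose, and Rbm8a (-0.40 ± 0.15 SE, adjusted p = 0.102) did not pass. In knockout lungs 2 of the 140 genes passed (1.43%, near the 1.14% of all genes called), both lower (0.502% of all genes), Ddx5 (-0.38 ± 0.07 SE, adjusted p = 0.0365) and the cold-inducible protein Cirbp (-0.64 ± 0.12 SE, adjusted p = 0.0343), the latter named after its value was seen.

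Gene length, which the symbol rule did not use, was set against the change. Across the 67 genes the change in control lungs and the length of the gene in GRCm38 had a Spearman rho of -0.01, and across 24672 genes it was -0.11. The changes of the 67 genes in control and in knockout lungs had a Pearson r of 0.74 (0.55 across all genes), from arrays that the 2 comparisons do not share but with common probes. These are descriptions across genes, which are not independent replicates. Of the 67 members 63 had a value above 5 in at least 3 arrays. The 4 that did not, Srsf12, Sf3b4, Snrnp35 and Hnrnpa1l2-ps2, had array values from 2.59 to 4.85, and none of them was called in any comparison. The symbol of Hnrnpa1l2-ps2 is that of a pseudogene, but its RefSeq type in GRCm38 is protein coding.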

How the data were processed

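Expression was measured on 12 Affymetrix arrays hybridised with biotin-labelled cRNA of perfused whole lung. The authors deposited log2 expression values made with RMA, per the submitters' processing notes. Neither the version of RMA nor its probe definition is named in the labels. The sorted values of all arrays were identical, so a change in total RNA cannot be seen. The number of arrays limits the precision. Of 25428 probe sets, 24705 had 1 symbol in the platform annotation, 0 had several and 723 had none, and 1 duplicate was dropped. Groups came from sample titles, and the study's text counts mice, so replicates are taken as separate mice. That text gives 4 mice per group, of which 3 were analysed here.

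Each gene was fitted with limma 3.58.1 (R 4.3.3) as 4 group means, with 8 residual and 3.61 prior degrees of freedom, and 6 two-sided contrasts. Replicate numbers were not used to pair arrays in the main fit. Of 15 same-numbered pairs, 4 correlated above 0.1 (range -0.25 to 0.28). With 3 arrays per group this cannot settle whether the numbers pair mice, so a replicate block was fitted as an alternative. The fit was tested on simulated data. The members, gene lists (196 of 208 genes measured), alternatives and the rule for named genes were chosen with earlier results of these data known. The rule named the Clk, Luc7l and Tra2 genes, called members by size of change, the highest and lowest of each family, the 5 smallest p-values where none passed, and 4 genes per further list.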

Additional observations from a re-analysis of the deposited data

How the results depend on the processing

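In control lungs the 30 calls ranged from 11 to 34 with 1 array left out, and were 24 with the replicate block (2 of 12 arrays correlated best with their own number), 21 with a Y-linked covariate, and 29 to 32 with the filter (values above 5 in 3 arrays), a variance trend, cyclic loess or, added after seeing the data, without both arrays with high Ucp1. They were 17 with only the 6 control arrays and 0 with the nuclear RNA covariate. In knockout lungs the 1 call ranged from 0 to 2 with 1 array left out, was 2 with the filter or the trend, and 0 with the replicate block, the nuclear or Y-linked covariate or without the arrays with high Ucp1. The 33 averaged calls ranged from 24 to 36 with 1 array left out, were 31 with the replicate block, and 0 with the nuclear covariate. The genotype and interaction counts were 0 under every alternative run. For the 30 called, Clk3 and both Tra2 genes in control lungs, the nuclear covariate alone of these alternatives turned a direction. Over the 67 members it turned 32, with no such count made over all genes measured. It gave Srsf1 0.071, Srsf10 0.44, Hnrnpa3 0.14, Prpf39 0.25, Hnrnpu 0.20, Sf3b6 0.035, Prpf38b 0.14, Snrnp48 0.036, Hnrnpll 0.14, Tra2a 0.25, Tra2b 0.28 and Sf3a1 -0.054, and the cause was not tested. The member median in control lungs went to -0.08 with it. A fit on 6 arrays has fewer degrees of freedom. Signal near the lower end of the arrays limits 4 members.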
